A study of Mus musculus with 22 samples.

Results

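Somatic ribosome RNA of hippocampal CA1 pyramidal neurons was compared between fear conditioned and home cage mice in 4 immunoprecipitated libraries, 2 per behaviour, each sequenced in a paired-end run and again in a single-end run. These 8 runs were chosen from the 22 runs of the series by their labels for behaviour, location and fraction, and not by any measured value. The series holds 11 libraries, of which 8 are immunoprecipitates from soma or dendrite dissections and 3 are the unbound supernatants. All mice, controls included, were Camk2a-tTA/tetO-EGFP-L10a double transgenics on C57BL/6, in which the Camk2a promoter drives the tetracycline transactivator and thereby a GFP fusion of ribosomal protein L10a. The tag therefore marks ribosomes of Camk2a-expressing excitatory neurons, and the anti-GFP antibody HtzGFP-19C8 recovered them from microdissected CA1. The fear conditioned group differs from the home cage group in all that conditioning involves, because no mice exposed to the chamber or to shock alone are among the samples used here. The age and sex of the mice, the time from training to dissection, and the number of mice behind a library do not appear in the labels. Nor do the labels say that libraries 1 and 2 of a group came from separate mice, so the spread between them may be technical.

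Ribosome-bound mRNA is the portion of the transcriptome that is available for translation at the time of dissection. In contextual fear conditioning a mouse learns to associate a chamber with a foot shock, and CA1 is needed to form that memory. In pyramidal neurons the training activates calcium entry through glutamate receptors, kinase and phosphatase cascades and the transcription factor CREB, and it induces immediate early genes, which are transcribed within minutes without new protein synthesis. The soma is the main site of protein synthesis in these cells, while a part of their mRNA is translated in dendrites.

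Values are FPKM of the transcript without most of its 3′ UTR (5′ UTR, coding part and the first stretch of 3′ UTR together), divided by a library factor (scaled FPKM). Unless the single-end run is named, they come from the paired-end run. In each pair of values, library 1 stands first and library 2 second. The paired-end runs were estimated at 19.1 and 29.7 M fragments in the fear conditioned and 13.6 and 13.9 M in the home cage libraries. Genes above 0 numbered 9267 and 9211 in fear conditioned and 5006 and 3220 in home cage somata. Of the 2928 genes tested, 13.3% and 11.6% were listed at 0 in the fear conditioned libraries, against 36.6% and 48.0% in the home cage libraries. The home cage libraries were shallower in the paired-end runs and listed fewer genes in both runs. In the single-end runs home cage library 2 was estimated at 4.35 M reads, above the 4.10 M of each fear conditioned library, and listed 2800 genes against 7844 and 8254. The number of detected genes and behaviour cannot be told apart in this design, and the part of depth was not tested. Home cage library 2 stood apart, with Rpsa, a protein of the small ribosomal subunit, at 74.0% of its summed paired-end FPKM and at 1.57% in the single-end run of the same library. In the other soma libraries Rpsa held 0.940% to 6.52% of the paired-end sum. Libraries of 1 group were not close to each other. Pearson's r of log2 values over the tested genes, a description because genes do not replicate each other, was 0.27 between the fear conditioned libraries, 0.0718 between the home cage libraries and 0.0430 to 0.120 across groups, while both runs of 1 library gave 0.408 to 0.701.

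**Figure D1:**
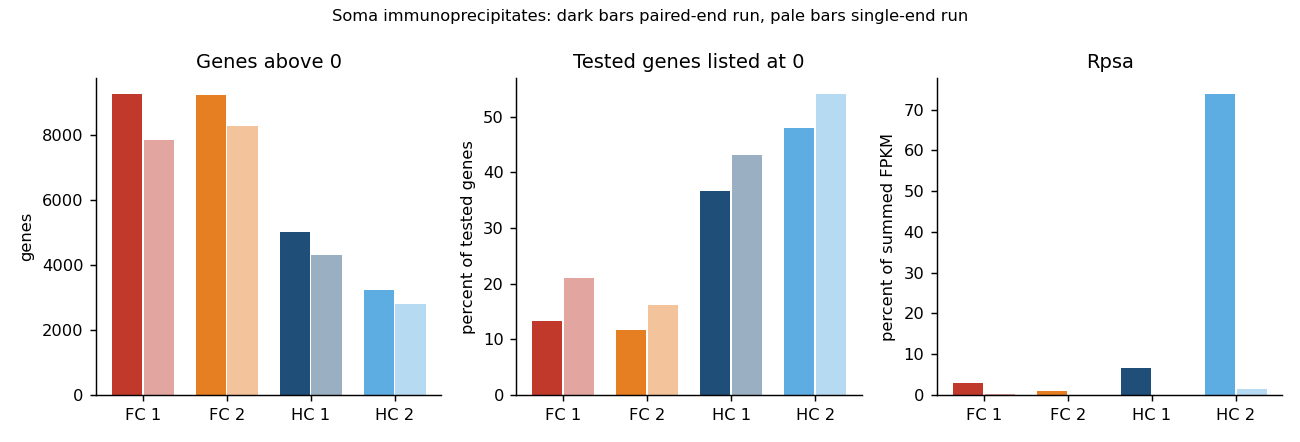
Genes above 0 (left), percent of the tested genes listed at 0 (middle) and percent of summed FPKM held by Rpsa (right) in the fear conditioned (FC) and home cage (HC) soma immunoprecipitates, 1 bar per run. Both home cage libraries list fewer genes than both fear conditioned libraries in both runs, and Rpsa takes 74.0% of the paired-end run of HC 2.

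The first question was which mRNAs on somatic ribosomes differed after fear conditioning. No gene of the 2928 tested passed limma's test with Benjamini-Hochberg adjustment (0.0% called, smallest adjusted p = 0.568). At an unadjusted p under 0.05, 174 genes were higher after fear conditioning (5.94%) and 43 were lower (1.47%), together 7.41% of those tested. The difference was above 0 for 61.9% of genes and below 0 for 36.2%. Both fear conditioned libraries lay above both home cage libraries for 978 genes (33.4%) and below both for 234 genes (7.99%), and such genes are called separated here. In both runs at once the groups were separated for 568 genes (19.4%) with higher and 80 genes (2.73%) with lower values. An exact permutation test of 2 libraries against 2 cannot give a p below 0.333, so a separation of single genes is a description.

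The excess of higher genes moved with the zeros and with the scaling. The median log2 difference over all tested genes was 0.43, and 401 genes were listed at 0 in both home cage and above 0 in both fear conditioned libraries, against 13 the other way round. Among the 1016 tested genes above 0 in all 4 libraries, 26.1% were separated with higher and 18.4% with lower values, and the median difference was 0.16 when only these were fitted. Of the genes with an unadjusted p under 0.05, 80.2% were higher in the scaled data, 98.3% (414 against 7) with the FPKM as deposited and 69.8% (132 against 57) after quantile normalization, with medians of 1.21 and 0.30. Without home cage library 2, the groups were separated with higher values for 1377 of the tested genes (47.0%) and with lower values for 738 (25.2%). Differences given below are differences of log2(scaled FPKM + 1), ± the standard error of the fit, and each is to be set against the median of 0.43. Differences and medians given without a library come from a refit with its own scaling and expression minimum, so its list medians cover the members that still reach that minimum. For Prkar1b, Gria3, Shank1, Add1, Cacnb4, Rpsa, Rps14, Eif4a2, Atp5g1, Hsp90aa1, Hmgn5 and Zbp1, described below from the paired-end run, the groups overlapped in the single-end run. With whole somata as input, fewer cells of a type and less RNA per cell cannot be told apart.

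The genes described first on the higher side are the 10 with the largest difference among the 58 genes whose group mean reached 10 on the higher side, with an unadjusted p under 0.05 and no overlap in either run. Since the rule used these values, they are descriptions, and the smallest adjusted p among them was 0.568. Gnai1 (chr5:17770953-17866231, minus strand; mm9, as all gene positions here) encodes an inhibitory G protein subunit that lowers cyclic AMP. Its scaled FPKM was 71.7 and 264 in fear conditioned and 0.259 and 0.752 in home cage somata, a difference of 6.54 ± 1.76 (unadjusted p = 0.00265). Ppp3ca (chr3:136333734-136598743, plus strand), the catalytic subunit of the calcium-dependent phosphatase calcineurin, read 49.8 and 25.7 against 1.62 and 0.151, a difference of 4.41 ± 1.42. In the paired-end run of both genes both home cage libraries were under 2 and both fear conditioned libraries were above 25. The single-end run gave 6.64 and 26.4 against 0 and 0 for Gnai1 and 5.73 and 29.6 against 0.870 and 0 for Ppp3ca. Without home cage library 2 the differences were 7.004 for Gnai1 and 3.93 for Ppp3ca.

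Calcium sensing was represented by Calm2 (chr17:87832741-87846275, minus strand), which encodes calmodulin, with a scaled FPKM of 17.3 and 148 against 0.779 and 1.35 and a difference of 4.67 ± 1.78. Calm3, which encodes the same protein, did not separate the groups in the paired-end run. There it read 3.42 and 229 after fear conditioning and 2.87 and 187 in home cage, with library 2 high in each group. The paired-end difference for Calm3 was 0.24 ± 2.17. In the single-end run Calm3 was separated with higher values, with 21.3 and 85.4 against 1.72 and 14.5. Among membrane proteins, Atp1b1 (chr1:166367398-166388486, minus strand), the beta subunit of the sodium pump, stood at 104 and 199.9 against 3.59 and 0.694 with a difference of 5.70 ± 1.92. Vamp2 (chr11:68902030-68905883, plus strand), the vesicle SNARE of neurotransmitter release, read 42.1 and 56.4 against 0.258 and 1.24 and differed by 4.89 ± 1.63. In Calm2, Atp1b1 and Vamp2 no paired-end home cage value was above 3.59 and no paired-end fear conditioned value below 17.3. Single-end values in home cage were 14.9 and 27.5 for Calm2, 3.10 and 8.69 for Atp1b1 and 0 and 5.17 for Vamp2. After fear conditioning they were 116 and 330, 17.5 and 40.0, and 56.5 and 83.4 in the same order.

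Another 3 of the 10 are models without an annotated coding sequence in the deposited annotation. Rtn-1A (chr12:73312739-73336726, minus strand) had a scaled FPKM of 94.99 and 162 against 0.919 and 5.61e-07 and a difference of 6.50 ± 1.51, with the smallest unadjusted p of the 10 (0.000941). AK192194 (chr12:8505510-8505781, plus strand) stood at 269 and 5.53 and AK009813 (chr3:40675077-40679531, plus strand) at 74.1 and 6.74, and each was listed at 0 throughout the home cage libraries. In both models fear conditioned library 1 carried most of the signal. No source used here tells whether the counting used strand, so these models cannot be separated from genes that overlap them. The depth behind the home cage values was small: Gnai1 rested on an estimated 3.20 and 4.20 fragments there against 2734 and 20240.3 in the fear conditioned libraries, and Vamp2 on 1.40 and 3.0000000 against 689 and 1857. As context from 1 library without a replicate, the supernatant of fear conditioned library 2 held Gnai1 at an unscaled FPKM of 13.6, beside 453 in its immunoprecipitate.

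On the lower side, 11 genes met the same rule, and the 10 with the largest differences included factors of translation and protein turnover. Eef2 (chr10:80639376-80645254, plus strand), the elongation factor that moves the ribosome along the mRNA, read 19.2 and 26.5 after fear conditioning and 369.9 and 322 in home cage, a difference of -3.88 ± 1.32 (unadjusted p = 0.0121). Gspt1 (chr16:11216334-11254418, minus strand), a translation termination factor, read 0.197 and 3.19 against 33.3 and 62.1 and differed by -4.38 ± 1.38. Rpl27a (chr7:116662709-116665883, plus strand) and Rpl8 (chr15:76734501-76736748, plus strand), encode proteins of the large ribosomal subunit. Rpl27a read 0.844 and 0.881 against 27.5 and 15.8 and differed by -3.55 ± 1.44, and Rpl8 read 1.26 and 1.94 against 29.3 and 13.4 and differed by -3.02 ± 1.29. Without home cage library 2 the difference was -3.96 for Eef2 and -4.06 for Gspt1. In these 4 genes both runs placed both home cage libraries above both fear conditioned libraries.

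The largest difference on this side was that of Dcaf7 (chr11:105898186-105920637, plus strand), an adaptor of ubiquitin ligases, with a scaled FPKM of 0.344 and 1.69 against 83.4 and 33.1 and a difference of -4.82 ± 1.42. Trp53inp1 (chr4:11083588-11101524, plus strand), a stress-induced target of p53, read 0.911 and 1.84 against 29.5 and 86.5. Pou2af1 (chr9:51021795-51048184, plus strand), a transcriptional coactivator known from B cells, read 3.18 and 0.838 against 112 and 29.3. Birc6 (chr17:74927635-75103113, plus strand), a ubiquitin-conjugating inhibitor of apoptosis, stood at 1.07 and 0.513 against 7.75 and 30.5. Tbrg4 (chr11:6515601-6526070, minus strand), a protein of mitochondrial RNA metabolism, and Kpna2 (chr11:106849943-106860839, minus strand), an importin of nuclear import, were near 0 after fear conditioning. Tbrg4 read 0.0336 and 0.0333 against 3.81 and 30.1, and Kpna2 0.0646 and 0 against 45.1 and 0.873. The Kpna2 difference of -3.17 ± 1.40 rested mostly on home cage library 1, whereas most genes of this group were high in both home cage libraries.

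**Figure D2:**
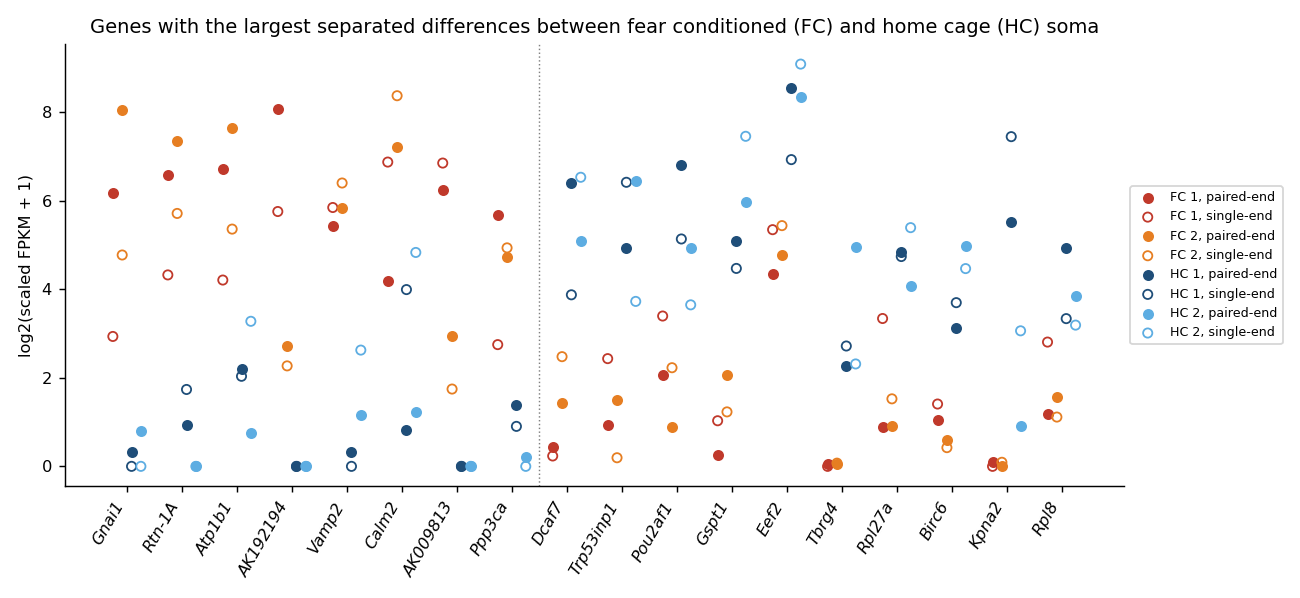
Level of 18 of the genes named by the size of their difference, log2(scaled FPKM + 1), in each soma library; filled points are paired-end runs, open points single-end runs, and the dotted line divides genes higher (left) from genes lower (right) after fear conditioning. The groups do not overlap within either run, by the rule that chose the genes, and several home cage points of the left group lie at 0.

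A second measure of the same libraries that the rule did not use is the rest of the 3′ UTR, counted apart from the coding part. It comes from the same RNA and is not a further replicate. Among the 1863 tested genes with any such signal in somata, 39.1% were separated with higher and 5.37% with lower values. Of the 10 higher genes, 6 were separated in the same direction there, 3 had no signal in this part and 1 overlapped. For Ppp3ca this part read 54.7 and 230.0 against 0 and 0, and for Calm2 95.1 and 552 against 16.6 and 8.21. Gnai1 was the gene that overlapped, with 0.444 and 0.234 against 7.10 and 0. Of the 10 lower genes, 2 kept their direction there, namely Dcaf7 (1.46 and 1.63 against 62.3 and 9.40) and Trp53inp1 (2.65 and 0.754 against 8.99 and 53.4). A further 3 had no signal, 3 overlapped, and Gspt1 and Birc6 were separated in the opposite direction, Gspt1 with 1.22 and 0.310 against 0.0303 and 0.0795 and Birc6 with 0.0226 and 8.30 against 0 and 0.

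Immediate early genes, the transcriptional hallmark of recent neuronal activity, were present at low levels and did not pass the test. All 46 genes on this list had a row, 12 of them were at 0 in all 4 soma libraries, and 6 reached the mean of 1 that the test required. Of the 34 genes above 0 in a soma library, 16 were separated with higher and 2 with lower values, beside 30.0% and 4.35% of the 12553 genes of the whole table above 0 there. In both runs 10 of the 34 were separated with higher values, beside 14.5% of the 12553 genes. These were Arc, Npas4, Egr3, Nr4a2, Nr4a3, Homer1, Dusp6, Inhba, Rasgrp1 and Vgf. Npas4, an activity-dependent transcription factor, read 0.941 and 1.85 after fear conditioning and 0.0437 and 0 in home cage, and 4.63 and 3.08 against 0 and 0 in the single-end run. Arc, an actin and receptor-trafficking regulator of synaptic strength, read 2.32 and 1.05 against 0 and 0, with 8.15 and 1.38 against 0.631 and 0 in the single-end run, and rested on an estimated 179 and 163 fragments in the fear conditioned libraries. Homer1, a postsynaptic scaffold with an activity-induced short form, read 2.88 and 1.70 against 0.414 and 0.360. For Npas4, Arc and Homer1 both runs separated the groups. Only Arc of these 3 was tested, with a difference of 1.38 ± 1.35 (unadjusted p = 0.324).

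Other classical members behaved differently from run to run. Egr1, a zinc finger factor, read 1.88 and 3.46 against 0 and 0.128 in the paired-end run, but the single-end value of home cage library 2 was as high as the fear conditioned values (1.46 and 3.49 against 0.580 and 3.66). Fos, the prototype of the class, was listed at 0.0284 and 0.307 against 0 and 0 and at 0 in all 4 single-end runs. Junb, a partner of Fos, overlapped between groups, with 0 and 0.148 against 0.0924 and 0, and Bdnf, a neurotrophin, was at 0 in all 4 libraries in both runs. The nuclear receptors Nr4a2 and Nr4a3 were separated in both runs, Nr4a2 with 0.477 and 0.481 against 0.162 and 0.247 and Nr4a3 with 0.561 and 0.773 against 0.104 and 0. Jund, a relative of Junb, and Nptx2, a secreted pentraxin, were the 2 separated with lower values, Jund with 0.0607 and 0.0527 against 10.96 and 0.204 and Nptx2 with 0.148 and 0.0580 against 0.918 and 1.22. Neither was separated in the single-end run. Members listed here by the run that separates them were chosen after their values were seen.

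The members with the highest levels went the other way or overlapped, mostly through home cage library 1. Btg2, an antiproliferative early gene, read 4.68 and 1.44 after fear conditioning against 38.3 and 0 in home cage. Nr4a1, an orphan nuclear receptor, read 1.31 and 1.03 against 13.1 and 0.250, and Per1, a clock and glucocorticoid-responsive gene, 0.385 and 1.42 against 20.7 and 0.895. Plk2, a kinase that acts in synaptic scaling, read 16.9 and 5.04 against 7.06 and 0, so that only home cage library 2 lay clearly below. None of the tested members had an unadjusted p under 0.05, and their median difference was -0.85. Set against home cage library 1 alone, both fear conditioned libraries were above it for 1 and below it for 4 of the 6 tested members, and against home cage library 2 alone above it for 4 and below it for 1. In refits, where other members can reach the minimum, the sign of the median also turned in 4 settings. These were no expression minimum, the FPKM as deposited, the single-end run and the remaining 3′ UTR. Over those of the 6 members that were also tested in the single-end run, the median there was -2.34, so the sign did not turn for them.

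**Figure D3:**
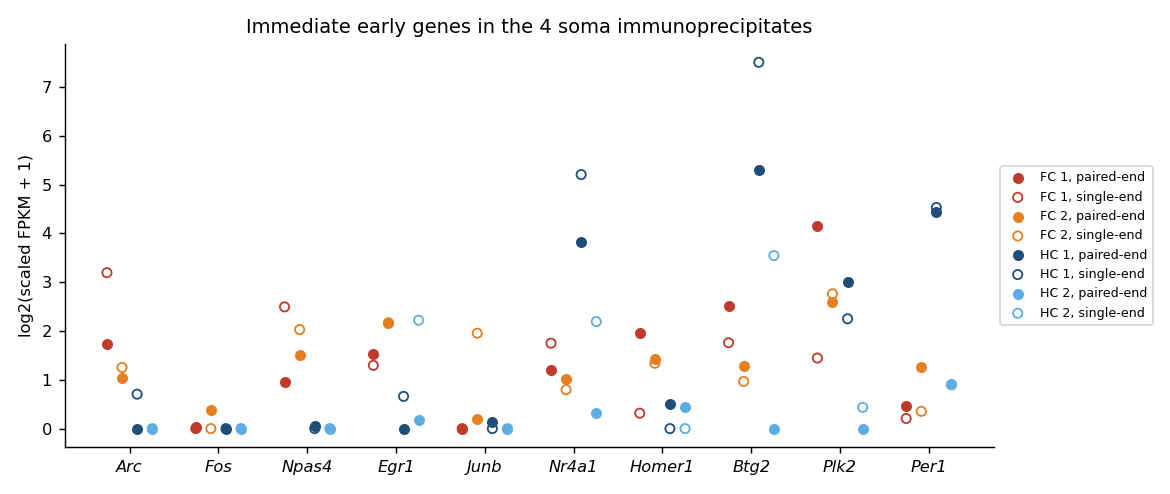
Level of 10 immediate early genes, log2(scaled FPKM + 1), in each soma library; filled points are paired-end and open points single-end runs. Npas4, Arc and Homer1 are higher in both fear conditioned libraries in both runs, while Nr4a1, Btg2 and Per1 are highest in HC 1.

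Many of these genes carry the cyclic AMP response element, the site that CREB binds, and 2 of the better measured ones, Btg2 and Plk2, hold it in full. Windows of 30 bases from their promoters are shown with the element in capitals, from RefSeq on GRCm38.p6, 5′ to 3′ on the strand of the gene. The Btg2 window is chr1:134079303-134079332 on the minus strand, with the element 166 bases before the start. The Plk2 window is chr13:110394971-110395000 on the plus strand, with the element 62 bases before the start.
Btg2: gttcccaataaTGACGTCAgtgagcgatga
Plk2: agcgctcgccgTGACGTCAcgaggccccgc
Of the 46 listed genes 34 had a promoter in the RefSeq table. The palindrome TGACGTCA was found in the table's window, which begins 250 bases before the start, in 6 of the 34 (17.6%), beside 478 of all 27025 genes (1.77%). Its core TGACG, on either strand and so including every palindrome, was found in 24 of the 34 (70.6%), beside 19.8% of all genes. A match describes letters and not binding. Of the 2 genes shown, Btg2 was highest in home cage library 1 and Plk2 in fear conditioned library 1.

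Kinases, phosphatases and other genes of the memory pathway around CREB were separated with higher values in 50.0% of the tested members, with 0 passing limma's adjusted test. Of 51 listed genes 50 had a row and 24 reached the expression minimum. A gene that is high in 1 group can reach that minimum through that group alone, so counts are also given over every gene with a row. The shares of all genes set beside such counts, 30.0% and 4.35%, leave out genes at 0 in all 4 soma libraries. The rows of a list keep such genes, 2 of the 50 here, which lowers the share of the list. Over the 50 rows, 25 were separated with higher and 1 with lower values, beside the 30.0% and 4.35% of all genes. Over the 24 tested genes 12 were separated with higher and 0 with lower values, and the median difference was 1.14 beside 0.43 for all tested genes. Without home cage library 2 these counts were 15 (62.5%) and 2 (8.33%), beside 47.0% and 25.2%, and the median was 1.07 beside 0.68.

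The list held 3 subunits of calcineurin, and all 3 were separated with higher values. Beside Ppp3ca, the second catalytic subunit Ppp3cb read 3.65 and 19.1 against 0 and 0 and differed by 3.27 ± 1.08 (unadjusted p = 0.0101). The regulatory subunit Ppp3r1 read 1.60 and 56.8 against 0.163 and 0 and differed by 3.51 ± 1.38 (unadjusted p = 0.0252), with fear conditioned library 2 far above library 1. Prkar1b, a regulatory subunit of protein kinase A, read 7.31 and 11.2 against 0.508 and 0.193 with a difference of 2.91 ± 1.27 (unadjusted p = 0.0398). Camk2a, the abundant calcium and calmodulin-dependent kinase whose promoter drives the tag, read 28.9 and 63.3 against 24.7 and 8.61. The groups were separated for Camk2a, but its difference of 1.48 ± 1.55 was smaller than its standard error (unadjusted p = 0.359). Among calcium sensors, 5 of 10 tested genes (50.0%, beside 33.4%) were separated with higher and 0 with lower values. Over the 18 with a row it was 6, beside 30.0% of all genes. Of the 18, 5 were at 0 in all 4 soma libraries, and the 30.0% leaves such genes out. The median of the calcium sensors, 1.19, was 2.85 without home cage library 2 and 0.58 without home cage library 1 (beside 0.86 for all genes). It was 0.0528 without fear conditioned library 2 and 3.10 without fear conditioned library 1. Vsnl1, a neuronal calcium sensor, read 148 and 181 against 0.910 and 38.7 and differed by 4.24 ± 1.72. In the single-end run Vsnl1 was highest in home cage library 2 (0.627 and 536 in home cage, 11.7 and 36.7 after fear conditioning), so its direction was not kept there.

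G protein subunits showed 6 of 11 tested members (54.5%, beside 33.4%) separated with higher and 0 with lower values. Their median difference of 1.48 was 0.77 without fear conditioned library 2 and 3.32 without fear conditioned library 1. Beside Gnai1, the gamma subunit Gng3 read 4.91 and 29.9 against 0 and 1.70, a difference of 3.04 ± 1.28 (unadjusted p = 0.0343). Gnas, the stimulatory alpha subunit, overlapped, with 2.74 and 20.5 against 0.408 and 23.4. Over all 26 listed genes, 12 were separated with higher and 0 with lower values, beside 30.0% and 4.35% of all genes.

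Genes of the synaptic vesicle and of transmitter release had a median of 1.66 over 27 tested members, the highest of the lists with at least 5 tested members. Of these, 15 (55.6%, beside 33.4% of all tested genes) were separated with higher and 0 with lower values. In both runs 11 of the 27 were separated with higher values, beside 19.4% of all tested genes. Over all 46 listed genes 25 were separated with higher and 0 with lower values, beside 30.0% and 4.35% of all genes. Snap25, the target SNARE that pairs with Vamp2, read 66.4 and 182 against 2.18 and 15.3 and differed by 3.95 ± 1.77 (unadjusted p = 0.0450). Syt1, the calcium sensor of release, read 26.3 and 38.5 against 0 and 1.55, a difference of 4.36 ± 1.34 (unadjusted p = 0.00639). Syn2, a synapsin that tethers vesicles, was at 2.62 and 8.92 after fear conditioning and at 0 in home cage libraries 1 and 2. Complexin 1, Cplx1, which clamps the SNARE complex, read 22.1 and 12.1 against 0 and 0.429 and differed by 3.86 ± 1.30. The single-end run kept the order of the groups for Snap25 and Syn2, but not for Syt1 and Cplx1, where home cage library 1 lay above fear conditioned library 1. The median of the list was 1.85 without home cage library 2 and 0.93 without fear conditioned library 2, beside 0.68 and 0.0434 for all tested genes.

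Glutamate receptors were separated with higher values about as often as all genes. Of 10 tested members 4 were separated with higher (40.0%, beside 33.4%) and 0 with lower values. Over all 28 listed, 4 of them at 0 in all 4 soma libraries, it was 9 and 0, beside 30.0% and 4.35% of all genes. The median of 1.65 was 0.16 without home cage library 2, below the 0.68 of all genes. Gria2, the AMPA receptor subunit that limits calcium permeability, read 57.2 and 25.6 against 11.5 and 0.138 and differed by 3.38 ± 1.62 (unadjusted p = 0.0573). Gria3, another AMPA receptor subunit, read 12.2 and 5.44 against 0.0526 and 0.900 with a difference of 2.71 ± 1.04 (unadjusted p = 0.0227). Grin2b, an NMDA receptor subunit, read 13.7 and 11.7 against 3.20 and 0.0451 and differed by 2.70 ± 1.22 (unadjusted p = 0.0463). The obligatory NMDA receptor subunit Grin1 and the metabotropic receptor Grm5 overlapped, Grin1 with 6.07 and 9.37 against 27.5 and 5.47 and Grm5 with 17.1 and 18.8 against 29.9 and 0.0558. In both, home cage library 1 held the highest paired-end value of the 4. In the single-end run Grm5 was separated with higher values by a small margin, at 4.43 and 11.7 against 4.02 and 0, while Grin1 overlapped there too.

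Postsynaptic scaffold and spine actin genes had a median of 1.23 over 27 tested members. Of these, 13 were separated higher (48.1%, beside 33.4% of all tested genes) and 1 lower (3.70%, beside 7.99%). Over the 39 with a row it was 17 and 1, beside 30.0% and 4.35% of all genes. The actin-binding proteins Cfl1, a severing factor, and Pfn1, which promotes polymerization, were among the higher ones. Cfl1 read 5.81 and 24.2 against 0 and 0.407 (difference 3.46 ± 1.54, unadjusted p = 0.0434), and Pfn1 103 and 65.2 against 15.1 and 4.49 (difference 3.14 ± 1.45, unadjusted p = 0.0505). The scaffold Cnksr2 read 6.11 and 7.73 against 0.348 and 0 and the actin-capping adducin Add1 5.72 and 7.66 against 0 and 0.227, with unadjusted p of 0.0259 and 0.0463. Shank1, a postsynaptic density scaffold, was the separated gene with lower values, at 4.71 and 4.27 against 14.5 and 97.2 and a difference of -2.83 ± 1.61 (unadjusted p = 0.103). Add2, another adducin, was high in home cage library 1 only, at 8.42 and 5.46 against 109.7 and 0.

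Channels and pumps were described by 3 further lists. Voltage-gated ion channels had 8 of 17 tested members (47.1%, beside 33.4% of all tested genes) separated higher and 0 lower, with a median of 1.18. Over all 45 listed 15 were separated higher, near the 30.0% of all genes. Cacnb4, an auxiliary calcium channel subunit, read 3.36 and 27.5 against 0 and 0 (difference 3.48 ± 1.14, unadjusted p = 0.00948), and 1.92e-08 and 24.1 against 0.353 and 3.47 in the single-end run. Scn8a, a sodium channel of the axon initial segment, was highest in home cage library 2, at 4.01 and 0.787 against 0.634 and 54.2. GABA receptor genes had 2 of 5 tested members (40.0%, beside 33.4%) and 9 of all 19 listed (beside 30.0%) separated higher, and 0 lower. Gabbr1, a subunit of the metabotropic GABA receptor, overlapped, with 5.39 and 75.2 against 10.9 and 6.47. Sodium pump and related calcium pump genes had 4 of 8 tested members (50.0%, beside 33.4%) separated higher. Over all 13 listed, 2 of them at 0 in all 4 soma libraries, it was also 4, beside 30.0% of all genes. Among the separated genes was the plasma membrane calcium pump Atp2b1 with 21.9 and 35.6 against 8.04 and 0.633.

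Cytoplasmic ribosomal proteins went against the general direction. Of 81 listed genes 80 had a row and 76 were tested, with 24 separated lower (31.6%, beside 7.99% of all tested genes) and 5 higher (6.58%, beside 33.4%), and a median of -1.01. In both runs 12 were separated lower, beside 2.73% of all tested genes, and 0 higher. Their sequences are shared with many processed pseudogenes, between which the authors' counting could have split reads. Rpsa read 723 and 200.5 in fear conditioned and 1672 and 80307 in home cage somata, a difference of -4.92 ± 1.38 (unadjusted p = 0.00358) that was -2.10 without home cage library 2. Rps14, a small subunit protein, read 0.821 and 1.78 against 29.2 and 162 and differed by -4.96 ± 1.45 (unadjusted p = 0.00466). Rpl41, a very short large subunit protein, read 147 and 47.8 against 159 and 1043, a difference of -2.27 ± 1.32 (unadjusted p = 0.111). Rps25 overlapped and was high only in home cage library 2, at 13.5 and 7.29 against 3.88 and 622.

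The lower level of ribosomal protein genes depended on that library and on the scaling. Their share of the summed FPKM was 7.78% and 3.25% after fear conditioning and 10.8% and 78.2% in home cage. With Rpsa left out, it was 4.90% and 2.33% of the remaining sum against 4.57% and 16.2%, so that home cage library 1 lay between the fear conditioned libraries. Without home cage library 2 the median of the list was 0.16, beside 0.68 for all tested genes, and 32 members were separated higher (42.1%) and 27 lower (35.5%). Without home cage library 1 it was -1.80, beside 0.86. With the FPKM as deposited it was 0.26, beside 1.21 for all genes. The median of the list was below that of all genes in each of the 17 alternatives that gave a value.

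With all 4 libraries, translation factors were separated with lower values more often, and with higher values less often, than the share over all tested genes. Of 27 tested genes 4 were separated higher (14.8%, beside 33.4%) and 7 lower (25.9%, beside 7.99%), and the median was -0.0676. It was below the median of all genes in each of the 18 alternatives. Without home cage library 2 the median of the list was 0.63, beside 0.68 for all tested genes. Then 14 members were separated higher (51.9%, beside 47.0%) and 8 lower (29.6%, beside 25.2%), so the smaller share of higher members depended on that library. Beside Eef2 on the lower side stood Eif4b, an initiation factor that stimulates the helicase, with 7.58 and 11.8 against 17.8 and 71.4 and a difference of -1.81 ± 1.65 (unadjusted p = 0.292). On the higher side stood Eif4a2, the helicase itself, with 8.96 and 9.51 against 0.161 and 0.351 (difference 3.03 ± 1.08, unadjusted p = 0.0154). Eif3c, a subunit of the initiation scaffold, read 3.59 and 11.6 against 0.0418 and 0, but its single-end values overlapped, at 0.794 and 1.35 against 1.02 and 1.43. Eef1a1, which delivers aminoacyl-tRNA, overlapped with 206 and 141 against 100.03 and 496. RNA-binding protein genes had a median of 1.14 over 37 tested members. Of these, 16 were separated higher (43.2%, beside 33.4%) and 2 lower (5.41%, beside 7.99%). Over the 69 with a row it was 27 and 4, beside 30.0% and 4.35% of all genes. Among the RNA-binding genes Celf4, a regulator of neuronal mRNA, read 8.68 and 38.9 against 0.939 and 0.901. Fxr1, a relative of the fragile X protein, read 7.03 and 3.35 against 0 and 0.

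Energy metabolism gave a median that turned with the treatment of zeros. Nuclear-encoded genes of oxidative phosphorylation had a median of 0.96 over 46 tested members. Of these, 17 were separated higher (37.0%) and 4 lower (8.70%), near the 33.4% and 7.99% of all tested genes. Over all 77 listed it was 30 and 4, beside 30.0% and 4.35% of all genes. Among the 14 members above 0 in all 4 libraries the median was -0.71, beside 0.16 for all such genes. Members of 1 enzyme differed: the ATP synthase subunit Atp5h read 6.05 and 16.6 against 0 and 0, whereas Atp5g1, a subunit of its membrane ring, read 0.326 and 1.32 against 6.88 and 10.2 (unadjusted p = 0.0129 and 0.0426). Sdhc, a subunit of succinate dehydrogenase, was high in home cage library 2 only, at 9.51 and 5.98 against 0.0346 and 1160.3. Of the mitochondrially encoded genes 2 were tested. Atpase6 read 393 and 208 against 10.8 and 43.7, a difference of 3.64 ± 1.04 (unadjusted p = 0.00414), but the annotation lists it on 2 chromosomes, so nuclear copies may share its reads. It was the gene that passed the adjusted test with the FPKM as deposited. Glycolysis genes had 6 of 16 separated higher (37.5%, near the 33.4% of all tested genes) and 0 lower. The pyruvate kinase gene Pkm2 overlapped, with 17.6 and 34.4 against 10.3 and 95.5.

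Protein quality control was mixed by system. Proteasome and ubiquitin genes had a median of 1.05 over 27 tested members. Of these, 13 were separated higher (48.1%, beside 33.4% of all tested genes) and 2 lower (7.41%, beside 7.99%). Over all 43 listed it was 23 and 2, beside 30.0% and 4.35% of all genes. The proteasome lid and base subunits Psmd6 and Psmc5 were listed at 0 in the paired-end run of both home cage libraries, and Psmc5 read 2.03 and 0 in their single-end run. After fear conditioning Psmd6 read 3.48 and 15.8, and Psmc5 read 8.58 and 6.19. Usp9x, a deubiquitinase, read 7.14 and 20.7 against 0.0472 and 0.0581 and differed by 3.66 ± 1.37 (unadjusted p = 0.0194). Heat shock chaperones had a median of 0.39, close to that of all tested genes. Of 20 tested members 6 were separated higher (30.0%, near the 33.4% of all tested genes) and 0 lower. Over all 36 listed it was 13 and 0, beside 30.0% and 4.35% of all genes. The constitutive chaperone Hspa8 overlapped, with 27.2 and 77.7 against 54.6 and 76.4, while Hsp90aa1, the stress-inducible Hsp90, read 13.5 and 16.1 against 0.310 and 0 (difference 3.79 ± 1.43, unadjusted p = 0.0203). Endoplasmic reticulum folding genes had 2 of 8 tested members separated higher and 0 lower, beside 33.4% and 7.99% of all tested genes. Over all 27 listed it was 9 and 0, beside 30.0% and 4.35% of all genes, so these counts did not set the list apart.

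Cytoskeleton and nuclear regulators completed the lists. Microtubule and motor genes had a median of 1.16 over 31 tested members. Of these, 15 were separated higher (48.4%, beside 33.4%) and 1 lower (3.23%, beside 7.99%). In both runs 13 were separated higher, beside 19.4% of all tested genes. Over the 45 with a row it was 22 and 1 in the paired-end run alone, beside 30.0% and 4.35% of all genes. Stmn2, a regulator of microtubule growth in neurites, read 13.6 and 4.91 after fear conditioning and was listed at 0 in home cage (difference 3.22 ± 1.04, unadjusted p = 0.00890). The alpha tubulin gene Tuba4a read 5.31 and 11.2 against 0.0803 and 0, whereas Tuba1a and Tuba1b, which encode nearly identical proteins, overlapped. Tuba1a read 12.6 and 43.0003 against 59.3 and 6.66 and Tuba1b 26.1 and 35.2 against 117 and 11.1. Small GTPase regulators had 7 of 26 tested members (26.9%, beside 33.4%) and 17 of the 41 with a row (beside 30.0%) separated higher. They had 2 separated lower and a median of 0.71. Rasgrf1, a calcium-responsive activator of Ras needed for some forms of memory, read 34.3 and 28.3 against 4.58 and 0.589, a difference of 3.43 ± 1.49 (unadjusted p = 0.0385). Chromatin and transcription regulators had 15 of 34 tested members separated higher (44.1%, beside 33.4%) and 2 lower (5.88%, beside 7.99%). Their median of 0.49 was close to that of all genes. Over the 68 with a row it was 25 and 2, beside 30.0% and 4.35%. The nuclear noncoding RNA Malat1, which ribosomes are not thought to translate, was abundant in all 4 libraries, with 1541 and 339 against 619 and 606 and a difference of 0.24 ± 1.10.

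**Figure D4:**
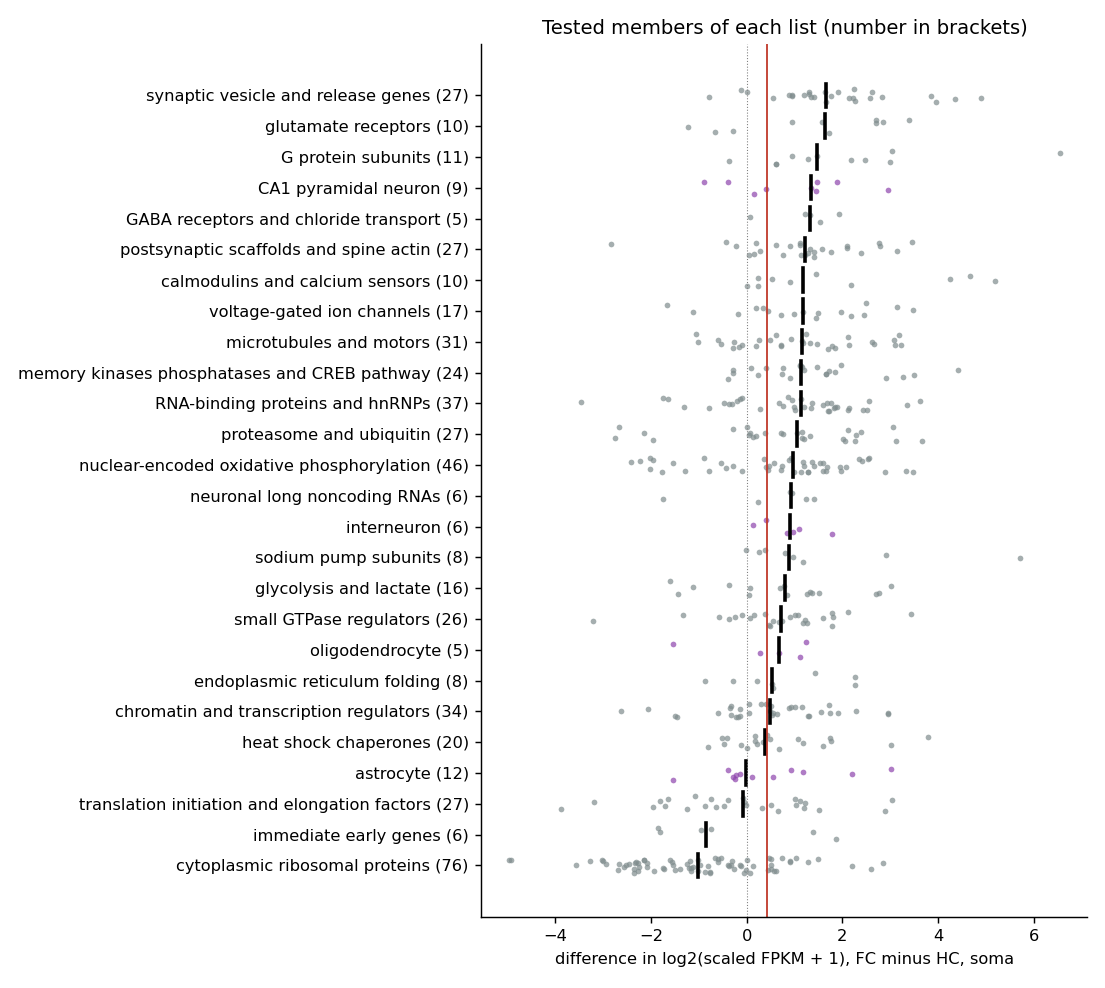
Difference in log2(scaled FPKM + 1), fear conditioned minus home cage soma, for each tested member of the lists with at least 5 tested members (number in brackets); grey points are genes of pathway lists, purple points cell type markers, black bars list medians, and the red line is the median of all tested genes, 0.43. Synaptic vesicle genes have the highest median, 1.66, and cytoplasmic ribosomal proteins the lowest, -1.01.

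Markers of cell types were read to check the label of the tissue. Of 22 markers of CA1 pyramidal neurons 9 were tested, and their summed scaled FPKM was 73.5 and 172 in fear conditioned against 61.7 and 44.5 in home cage somata. Neurod6, a transcription factor of pyramidal neurons, read 7.67 and 59.9 against 0.423 and 5.16, with single-end values of 1.14 and 10.8 against 0.820 and 30.5 that overlapped, and Wfs1, a marker of CA1, read 1.74 and 5.83 against 0.349 and 0. Some pyramidal neuron markers were therefore present in all 4 libraries. Of the 22 markers, 6 and 2 were listed at 0 in the fear conditioned and 11 and 15 in the home cage libraries. Wfs1 was among those at 0 in home cage library 2. Camk2a alone held 24.7 and 8.61 of the home cage sums. Markers of CA3, CA2 and the dentate gyrus were low, with sums of 1.37 and 5.53 against 0.126 and 0 for CA3 and CA2 and of 2.09 and 5.99 against 2.17 and 0.436 for granule cells. Interneuron markers summed to 11.4 and 17.7 against 2.53 and 2.54, with the GABA synthesis genes Gad1 and Gad2 listed at 0 in home cage and below 1 in both fear conditioned libraries.

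Glial signal differed from library to library within each group. Astrocyte markers summed to 83.6 and 29.3 after fear conditioning and 39.6 and 8.17 in home cage, with 12 of 22 tested and a median difference of -0.0141. Of the defining markers, Gfap was below 1 in all 4 paired-end runs, and Aqp4 was above 0 in fear conditioned library 1 only. Oligodendrocyte markers summed to 75.9 and 1.45 against 34.9 and 8.95. Microglia markers summed to 7.40 and 5.52 against 9.13 and 1.88, and vascular markers to 2.32 and 3.19 against 15.3 and 0.375. The choroid plexus gene Ttr read 0 and 0.0584 against 14.1 and 0.833, and blood cell markers summed to at most 5.57. The defining markers C1qa of microglia and Cldn5 of endothelium were listed at 0 in 3 of the 4 libraries and below 0.1 in fear conditioned library 1. The sums for astrocytes, oligodendrocytes, microglia, vascular cells and granule cells overlapped between the groups. Those for CA1 pyramidal neurons, CA3 and CA2, interneurons and oligodendrocyte precursors (1.29 and 2.73 against 0.106 and 0.165) were higher in both fear conditioned libraries, as was the number of detected genes. The blood cell sums were 5.57 and 2.69e-05 against 0 and 0, with nearly all of the signal in fear conditioned library 1. The part of these cell types in the differences of other genes was not tested.

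Whether the effect of fear conditioning in somata differed from that in dendrites was tested in the same fit, on 4 further immunoprecipitates that share no library with the soma comparison. No gene passed (0.0% called, smallest adjusted p = 0.716), and at an unadjusted p under 0.05 the soma effect was larger for 74 genes (2.53%) and smaller for 28 (0.956%). Across the 2928 genes both effects were correlated with r = 0.0360, given as a description since genes are not independent. The sign was the same for 1457 genes. Of the 10 genes named for higher soma values 5 had a positive difference in dendrites, and of the 10 with lower soma values 4 had a negative one.

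The genes named for this comparison were chosen for the size of the difference of effects, so their opposite directions in somata and dendrites follow largely from that choice. Sept7, a septin of the spine neck and dendritic branch points, read 5.84 and 28.2 against 1.88 and 0 in somata and 1.28 and 0.411 against 92.4 and 16.6 in dendrites, a difference of effects of 7.56 ± 2.17 (unadjusted p = 0.00417). Usp9x read 0.736 and 3.36 against 16.1 and 22.7 in dendrites, opposite to its soma values, with a difference of effects of 6.53 ± 1.93 (unadjusted p = 0.00514). Hmgn5, a nucleosome-binding protein, reached 6.03 ± 2.78 mainly through 1 home cage dendrite library at 281. On the negative side, Zbp1 (chr2:173032114-173044423, minus strand), a sensor of Z-form nucleic acids, read 0.133 and 0.0319 against 0.394 and 373 in somata and 23.3 and 123 against 0 and 0.915 in dendrites, a difference of effects of -9.71 ± 3.06 that rested in somata on home cage library 2. Gspt1 read 0.773 and 5.66 against 0.300 and 0.0432 in dendrites, and Rps14 5.05 and 1.49999 against 0 and 1.14, with differences of effects of -5.94 ± 1.96 and -6.37 ± 2.05. Without home cage soma library 2 the soma difference was -0.42 for Zbp1 and 2.38 for Sept7.

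Arc and Camk2a, mRNAs known to reach dendrites, were also read there. Arc stood at 0.416 and 25.4 in fear conditioned and 0 and 0.748 in home cage dendrites, with nearly all of it in fear conditioned library 2, and its difference of effects was -0.83 ± 1.91 (unadjusted p = 0.672). Camk2a stood at 114 and 382 against 58.6 and 586 in dendrites, where the groups overlapped, with a difference of effects of 1.31 ± 2.20 (unadjusted p = 0.561).

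**Figure D5:**
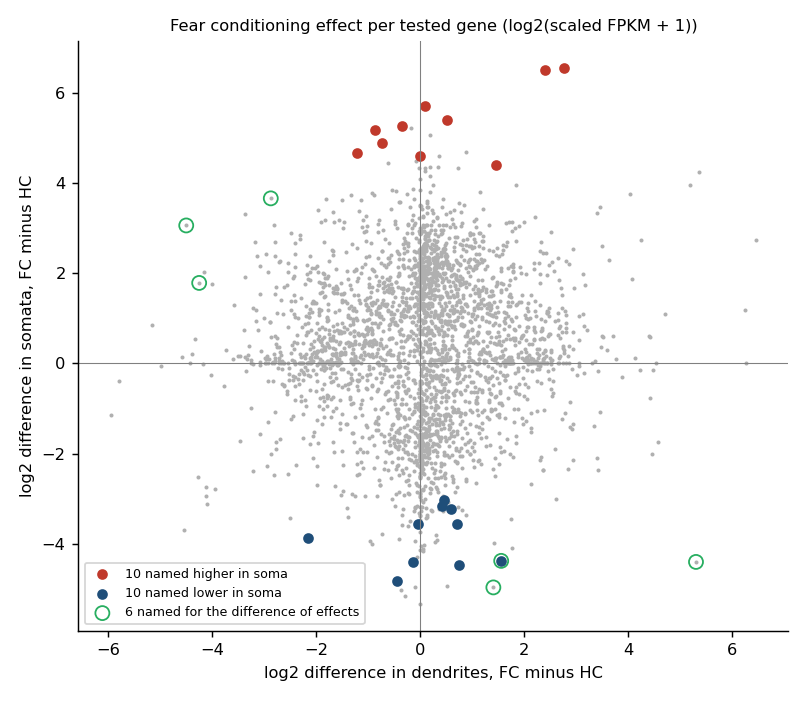
Fear conditioned minus home cage difference in log2(scaled FPKM + 1) in somata (vertical) against dendrites (horizontal) for each of the 2928 tested genes (grey), with the genes named for higher (red) or lower (blue) soma values and for the difference of effects (green rings). The cloud shows no common slope (r = 0.0360), and the named soma genes spread on both sides of 0 in dendrites.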

How the data were processed

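Ribosome-bound RNA was amplified with Ovation RNA-Seq System V2 and each library was sequenced in a paired-end and again in a single-end run, per the labels' protocols. The authors deposited FPKM, fragments per length of transcript and per depth of library, for each gene and transcript part. Cufflinks 2.0.2, STAR 2.1.1d, CASAVA 1.9 and mm9 stand in the submitters' processing notes. No source used here gives their settings or use of strand. FPKM is no count, so limma 3.58.1 with an intensity trend was fitted to log2(FPKM + 1) after median-ratio scaling, over 8 immunoprecipitates in 4 groups with 4 residual degrees of freedom. Scaling used the 870 genes above 0 in all 8 paired-end runs (428 in the single-end runs). Tested genes reached a mean of 1 in scaled FPKM. Paired-end values are reported, and a library's runs made up 1 replicate.

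Fragment numbers were estimated from the steps between low FPKM values and limit the precision of genes at low level. An exact 0 can be a failed estimate and is given as listed at 0. With libraries that may share mice, p-values cover only the spread among these samples. Alternatives were other pseudocounts, minimums and scalings, the single-end runs, the rest of the 3′ UTR, quality weights, a replicate block and leaving out each soma library. Supernatants entered no test.

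The members and lists were chosen with earlier results of these data known. Named genes were the 10 with the largest difference per direction among separated genes with a level of at least 10. To these came, per list, the 3 with the highest level and those with an unadjusted p under 0.05, a fixed set of activity genes with Camk2a and Rpsa, and 3 per direction for the difference from dendrites. Others are said to be chosen after their values were seen or serve as defining markers. Some named genes are not reported here.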

Additional observations from a re-analysis of the deposited data

Results flagged for a closer look

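The rest of the 3′ UTR, which the comparisons of the coding part do not use, held signal of 3 immediate early genes above its level in home cage somata. In scaled FPKM, Arc read 0.603 and 1.23 in fear conditioned and 0 and 0 in home cage somata. Egr1 read 0.287 and 0.963 against 0.162 and 0, and Junb read 0.596 and 1.45 against 0 and 0. For Junb the coding part had overlapped between the groups, whereas Arc and Egr1 were separated in both parts. In the same region Camk2a read 70.5 and 91.6 against 49.6 and 16.1, the same order as in its coding part. The Arc difference there was 0.92 ± 1.65 (limma, unadjusted p = 0.585) and that of Camk2a 1.47 ± 1.42 (unadjusted p = 0.317), so neither passed. Not every activity gene was higher there: Homer1 overlapped, with 1.16 and 1.61 against 1.41 and 0, and Btg2 was lower, with 0.403 and 0.367 against 11.1 and 73.1. Of the 1863 tested genes with signal in this region 39.1% were separated with higher values.

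Atp9a, a phospholipid flippase of endosomes, was the 1 gene whose fear conditioning effect in the rest of the 3′ UTR differed between somata and dendrites. It read 219 and 833 in fear conditioned and 0 and 0 in home cage somata, and 0 and 0 in fear conditioned but 426 and 538 in home cage dendrites. The difference of effects was 17.6 ± 2.32 on the log2 scale (limma with Benjamini-Hochberg adjustment, adjusted p = 0.00321). Values listed at exactly 0 beside values of 219 or more can include failed estimates, and that was not tested.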

How the results depend on the processing

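No gene passed limma's adjusted test in 14 of the 18 alternatives. Atpase6 passed with the FPKM as deposited (1 gene, adjusted p = 0.0419). Leaving out 1 soma library gave 0 to 135 passing genes: 135 without fear conditioned library 1, 121 without library 2, 0 without home cage library 1 and 102 without library 2. Of these, 102, 97 and 82 had a scaled FPKM under 0.5 in each of the other 6 libraries, so that they rest on the lone library of the group, which is assumed to vary like the others. Genes separated with higher values numbered 978, and 3769 with no minimum, 216 with a minimum of 5, 265 above 0 in all 4 libraries, 1776 as deposited and 1113 to 1593 without 1 library. Those with lower values numbered 234, and 546, 91, 187, 96 and 342 to 814 in the same order, with 151 in the rest of the 3′ UTR. The difference from dendrites had 0 passing genes except 1 in the rest of the 3′ UTR, and could not be fitted with somata alone. With a replicate block 155 genes were higher and 73 lower at an unadjusted p under 0.05 and 0 passed. Across genes, the differences of library 2 minus library 1 had an r of -0.0168 to 0.0562 between groups. Libraries of 1 soma group themselves had an r of only 0.0718 or 0.27. A low r therefore cannot tell whether libraries with equal numbers share mice. The labels give no shared animal or day.

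Of 906 values of the 55 named genes with an unadjusted p under 0.05, 886 kept direction and side, 11 reversed and 9 passed the adjusted test, 8 of these without 1 library and 1 with the FPKM as deposited. In the rest of the 3′ UTR the difference was 1.16 for Eef2, 1.62 for Birc6, -0.29 for Gria3, -2.03 for Grin2b, -1.81 for Cfl1, -0.68 for Hsp90aa1 and -0.58 for Rasgrf1. In the single-end run it was -0.43 for Vsnl1, -0.67 for Cplx1, -0.11 for Eif3c and -0.59 for Neurod6. The cause was not tested. Genes near 0 in the home cage libraries rest on few fragments, which limits their differences.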

Other observations

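Outside the coding part, the rest of the 3′ UTR held further genes with a large difference. The 2 given here were chosen after their values were seen, and neither passed limma's adjusted test. Sp140, a nuclear body protein known from leukocytes, read a scaled FPKM of 0 in both fear conditioned and 89.1 and 210.0 in home cage somata (adjusted p = 0.0651). It was listed at 0 in all 4 dendrite immunoprecipitates. Lars2, the mitochondrial leucyl-tRNA synthetase, had very high values in this region in every immunoprecipitate. It read 872 and 4160 in fear conditioned and 15150.3 and 22161 in home cage somata, a difference of -3.26 ± 0.75 (adjusted p = 0.252).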
